A study of Mus musculus with 10 samples.

Results

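The integrated stress response and the unfolded protein response were followed through 32 genes, out of 55414 in the count tables, in mouse macrophages sorted into Eff+ and Eff- cells. The genes were chosen by name for their place in these pathways, and all 32 were found by symbol and tested in both experiments. They fall into an arm of 16 genes downstream of the transcription factors ATF4 and CHOP and an arm of 16 genes of the endoplasmic reticulum (ER), its stress sensors, chaperones and degradation genes. Eff+ cells are those sorted as having taken up apoptotic cells (efferocytosis), and Eff- cells those sorted as not having done so. The wound libraries came from macrophages of skin wounds collected 3 days after injury in LysMCreER/mTmG mice, which had tamoxifen for 6 days, with 3 Eff+ and 3 Eff- libraries. All 6 wound libraries share the Cre driver, the reporter and the tamoxifen. LysM is the lysozyme gene, which neutrophils and monocytes express as well as macrophages, and Cre fused to the oestrogen receptor acts once tamoxifen is given, switching the mTmG reporter from a red to a green membrane protein. The culture libraries came from wild-type bone marrow cells grown in GM-CSF for 7 days and given apoptotic fibroblasts for 12 h, with 2 Eff+ and 2 Eff- libraries. The names of the Eff- culture columns carry the letters NOAC, although the labels list the apoptotic cell treatment for all 4, so it is unclear whether those Eff- cells had met apoptotic cells. The comparison asks whether the stress response transcripts differ between cells that had and had not engulfed dying cells.

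Cells answer amino acid shortage, haem deficiency, double-stranded RNA and misfolded ER proteins with kinases that phosphorylate the initiation factor eIF2. General translation then falls, while the mRNA of Atf4 is translated better, and ATF4 with its partner CHOP (gene Ddit3) raises genes for amino acid supply, feedback dephosphorylation of eIF2 and, when stress lasts, cell death. Misfolded ER proteins also act through the sensors IRE1 (Ern1) and ATF6, which produce spliced XBP1 and cleaved ATF6 and raise chaperones and degradation genes, while the sensor PERK (Eif2ak3) feeds the eIF2 route. Much of this control is by translation, splicing and cleavage, which gene counts of polyadenylated RNA do not show.

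Total counts were 39735437 to 57308823 per wound library and 17622740 to 27261880 per culture library, so the wound libraries carried the smaller counting error. The wound libraries numbered 2 stood apart in Lyz2, which is the mouse LysM gene that also names their Cre driver. They had 159484 counts of it in Eff+ and 345046 in Eff-, against 160 to 413 in the other wound libraries. Why they differed was not tested. The culture libraries numbered 1 stood apart in breadth, with counts on 35649 genes in Eff+ and 44836 in Eff-, against 19649 and 18171 in those numbered 2. The macrophage markers Adgre1, Csf1r, Cd68 and C1qa had counts in every library. In wounds 8 of 10 macrophage markers had a negative log2 fold change in Eff+ cells, with a median of -0.87. Without overlap between the groups, 7 were lower and 1 was higher, where 18.1% of all genes tested were lower and 18.7% higher. In edgeR's test 3 fell (C1qa, Mrc1 and Adgre1, by 0.85 to 1.19 on the log2 scale) and Cd14 rose by 1.10. Of all genes tested, 3.79% fell and 7.39% rose. Summed neutrophil markers were at 2.80 to 3.25% of all counts in wound Eff+ cells and 0.489 to 0.861% in wound Eff- cells. All 16 were higher in Eff+ with no overlap between the groups, and 14 passed the test, among them Stfa2l1, S100a8, S100a9 and Mxd1 with log2 fold changes of 2.63, 2.62, 2.64 and 2.06. Ly6g, a defining neutrophil gene, was at 969 to 1703 counts in Eff+ wound libraries and 156 to 292 in Eff-. Fibroblast markers held 0.0713 to 0.236% of wound Eff+ counts and 0.0254 to 0.142% in Eff-, with Acta2 and Col6a3 called higher among 12. The keratinocyte genes Krt14 and Krt5 had 26 to 791 counts in each Eff+ wound library and 0 in each Eff-, and Perp was called higher as well. Of the dendritic cell and B or plasma cell markers none was called in wounds, with Clec9a at 2.37, Xcr1 at -1.24, Cd79b at -1.27 and Sdc1 at -0.85 on the log2 scale. The part of these other cell types, which differed together with the stress genes, in the wound results was not tested, and in such bulk samples fewer cells of a type and less RNA per cell cannot be told apart.

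The promoters of the 2 arms hold different short elements, which are shown because the arms are compared throughout. RefSeq windows of the GRCm38.p6 build, running from 250 bases before to 50 after each gene's start, were at hand for 29 members, all but Atf6, Hyou1 and Manf. This build is older than the GRCm39 of the counts, and its coordinates apply to these sequences only. The core of the composite element that ATF4 binds with C/EBP partners was searched as TGATGNAA on both strands, and its reverse complement appears as TTGCATCA in the windows below. It was found in 5 of 16 ATF4-CHOP members (Nupr1, Trib3, Chac1, Asns and Pck2), in 1 of 13 ER members (Herpud1) and in 4.51% of 27025 genes. The ER stress element, searched as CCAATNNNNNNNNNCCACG on both strands, was in 5 of 13 ER members (Hspa5, Hsp90b1, Calr, Dnajc3 and Creld2, with 2 matches in Hsp90b1), in 0 of 16 ATF4-CHOP members and in 0.137% of genes. A related element, ATTGGNCCACG, was found among the members in Herpud1 alone and in 0.0444% of genes. The cyclic AMP response element TGACGTCA was in Ppp1r15a and in 2.03% of genes, and TGACGTGG, the core of the unfolded protein response element, was in no member window and in 0.714% of genes. No pair of these matches overlapped in the windows shown. Each sequence is given 5′ to 3′ on the gene's own strand with the matching letters in capitals, and a match is a run of letters, not a measured binding site.
Chac1, chr2:119351019-119351086, plus strand: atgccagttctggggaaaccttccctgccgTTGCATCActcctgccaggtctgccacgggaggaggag
Asns, chr6:7693210-7693262, minus strand: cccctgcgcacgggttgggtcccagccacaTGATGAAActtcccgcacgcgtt
Nupr1, chr7:126625543-126625610, minus strand: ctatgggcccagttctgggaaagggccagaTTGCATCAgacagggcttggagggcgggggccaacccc
Herpud1, composite core, chr8:94386287-94386354, plus strand: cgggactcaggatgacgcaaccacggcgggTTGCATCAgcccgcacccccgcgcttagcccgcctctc
Herpud1, related ER element, chr8:94386347-94386417, plus strand: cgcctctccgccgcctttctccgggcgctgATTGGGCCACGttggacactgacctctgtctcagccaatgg
Ppp1r15a, cyclic AMP element, chr7:45526269-45526310, minus strand: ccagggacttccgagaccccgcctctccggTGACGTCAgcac
Hspa5, chr2:34771995-34772073, plus strand: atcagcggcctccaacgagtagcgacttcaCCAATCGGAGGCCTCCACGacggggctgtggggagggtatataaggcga
Hsp90b1, chr10:86705608-86705686, minus strand: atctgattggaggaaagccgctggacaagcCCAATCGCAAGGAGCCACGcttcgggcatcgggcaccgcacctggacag

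In wounds, the ATF4-CHOP arm held 6 genes that rose in Eff+ cells and 0 that fell, against 2 that rose and 1 that fell in the ER arm. The genes that rose were Ddit3, Ppp1r15a, Sesn2, Chac1, Asns and Phgdh in the first arm and Dnajb9 and Herpud1 in the second, and Sdf2l1 fell. Eff+ and Eff- libraries were compared with edgeR's quasi-likelihood test, and a gene was called at a Benjamini-Hochberg adjusted p under 0.05 over 14908 genes. Of all genes tested, 11.2% were called, 7.39% higher and 3.79% lower in Eff+. The median log2 fold change was 0.57 over the 16 ATF4-CHOP genes and -0.15 over the 16 ER genes, beside -0.03 over all genes tested. The 2 arms took 0.21 to 0.294% (ATF4-CHOP) and 0.378 to 0.443% (ER) of all counts in Eff+ libraries, against 0.153 to 0.187% and 0.376 to 0.472% in Eff- libraries. Of the ATF4-CHOP share, Ppp1r15a, Sesn2, Chac1 and Ddit4 held 0.16 to 0.244% in Eff+ and 0.0928 to 0.126% in Eff-. The 6 factors and regulators of that arm were lower, at 0.0423 to 0.0486% in Eff+ and 0.0497 to 0.0552% in Eff-, so its summed share does not speak for all 16 genes. Leaving out the Eff+ library numbered 2 left 0 genes called in the whole table (edgeR, adjusted p under 0.05), members included.

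**Figure D1:**
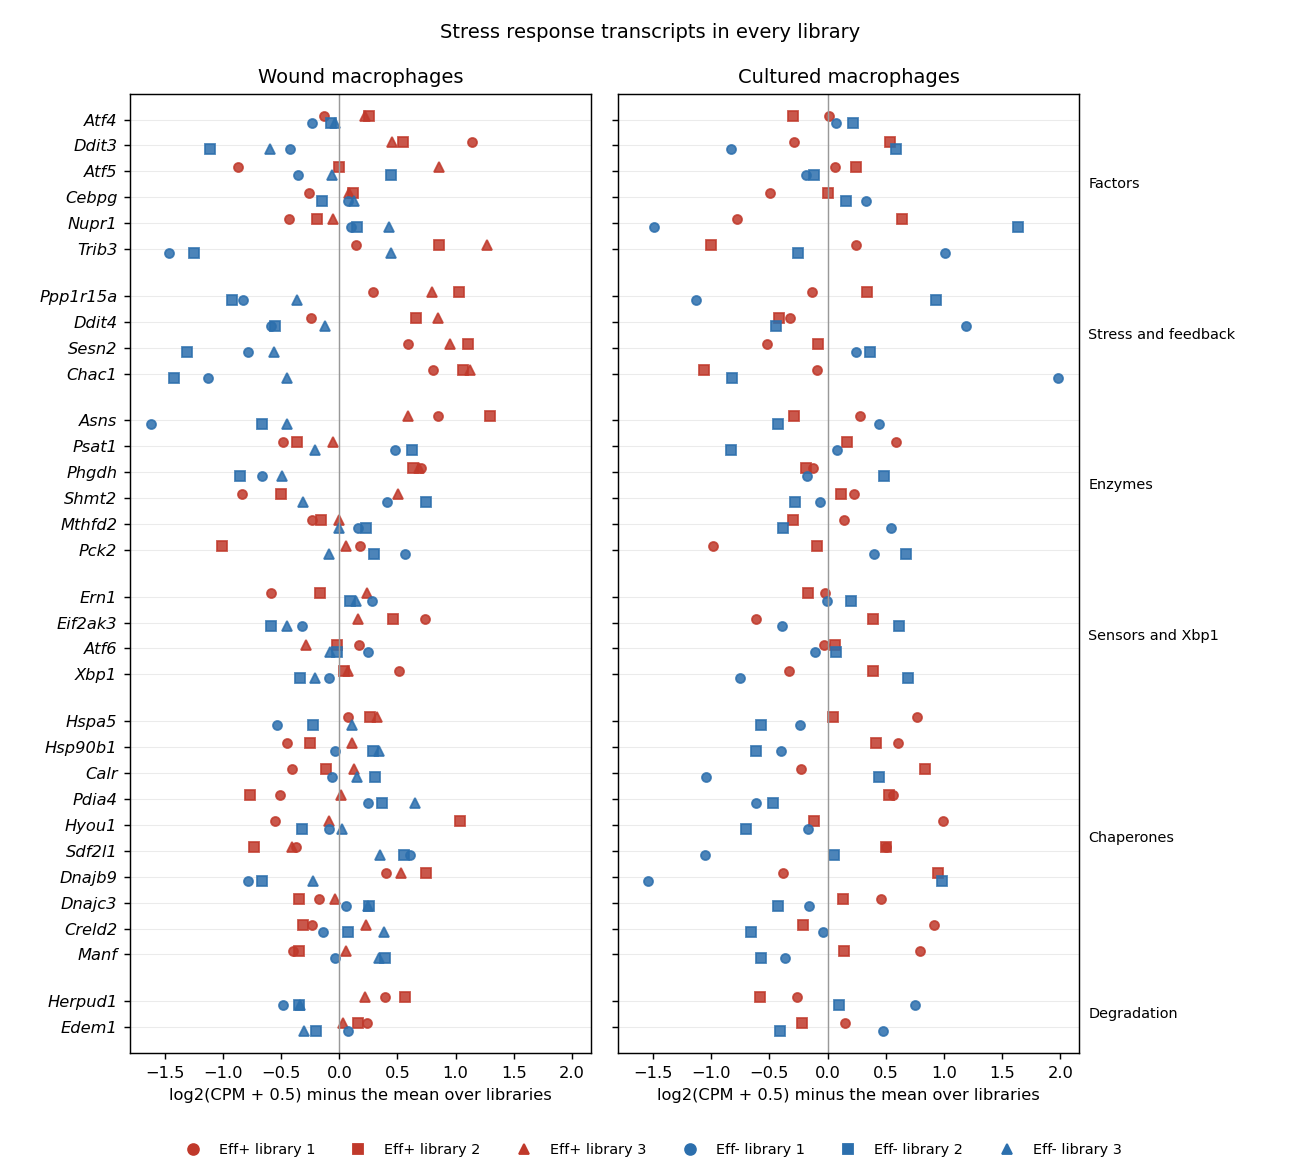
Level of each of the 32 members in each library, as log2(CPM + 0.5) minus the member's mean over the libraries of the same experiment, with 1 point per library, Eff+ in red just above Eff- in blue in each row, wounds on the left and culture on the right. In wounds Sesn2, Chac1, Ddit3, Ppp1r15a, Asns and Phgdh were above their mean in all 3 Eff+ libraries and below it in all 3 Eff- libraries, while in culture Hspa5, Hsp90b1 and Pdia4 were higher in both Eff+ libraries than in both Eff- libraries.

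The transcription factors and regulators of the arm moved unequally in wounds. Atf4, the central factor, had 152, 198 and 193 CPM (counts scaled to a common library size after TMM normalisation) in Eff+ libraries and 141, 157 and 161 CPM in Eff- libraries. The groups overlapped, and the log2 fold change of 0.24 (SE 0.17, adjusted p = 0.38, edgeR) did not pass. Ddit3, which encodes CHOP, had 164, 109 and 102 CPM in Eff+ libraries, against 55.0, 34.0 and 48.9 CPM in Eff-. Every Eff+ library was above every Eff- library, and Ddit3 rose by 1.44 on the log2 scale (SE 0.26, adjusted p = 0.017, edgeR), a fold of 2.72. On GRCm39 it lies at chr10:127126643-127132157, where a short second identifier of the same symbol, with 0 counts, shares 6.13% of its exon bases. Trib3, a pseudokinase that restrains ATF4 and CHOP, had 5.52, 9.32 and 12.6 CPM in Eff+ libraries and 1.47, 1.79 and 6.88 CPM in Eff-, with overlap and an adjusted p of 0.17 (edgeR). Nupr1, a small stress-induced chromatin protein, went the other way with 131, 155 and 170 CPM in Eff+ and 190, 197 and 238 CPM in Eff-. All 3 Eff+ libraries were below all 3 Eff- libraries, but the log2 fold change of -0.45 (SE 0.17, adjusted p = 0.13, edgeR) did not pass. Atf5 and Cebpg, bZIP factors of the same family as Atf4, were at 0.13 and -0.03.

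Of the 4 stress and feedback genes of the arm, 3 rose in wound Eff+ cells. Sesn2, a sestrin that senses leucine and lowers mTORC1 activity, had 65.2, 93.3 and 84.0 CPM in Eff+ libraries, against 24.9, 17.1 and 29.0 CPM in Eff-. All Eff- libraries were below the lowest Eff+ one, and Sesn2 averaged 80.9 ± 14.3 CPM in Eff+ and 23.7 ± 6.02 CPM in Eff- (SD, n = 3 each). It rose 3.42-fold (log2 1.77, SE 0.24, adjusted p = 0.0097, edgeR quasi-likelihood), and lies at chr4:132219343-132237812 on GRCm39. Chac1, which breaks down glutathione, had 7.21, 8.70 and 9.11 CPM in Eff+ libraries, against 1.51, 1.14 and 2.73 CPM in Eff-. Its groups were apart, and it rose 4.65-fold (log2 2.22, SE 0.39, adjusted p = 0.017, edgeR), the largest fold among the 32 members. Ppp1r15a encodes GADD34, the subunit that directs a phosphatase to eIF2 and so ends the response. It had 1692, 2822 and 2403 CPM in Eff+ libraries, against 776, 728 and 1070 CPM in Eff-, with no overlap. It rose 2.69-fold (log2 1.43, SE 0.26, adjusted p = 0.018, edgeR). Ddit4, another brake on mTORC1, had 40.5, 76.5 and 87.3 CPM in Eff+ and 31.9, 32.7 and 44.2 CPM in Eff-. The lowest Eff+ value lay inside the Eff- range, and the log2 fold change of 0.91 (SE 0.29, adjusted p = 0.084, edgeR) did not pass, although it was called in 3 of 14 alternatives, DESeq2 among them.

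The amino acid and one-carbon enzymes split in wounds, 2 higher and the other 4 below 0. Asns makes asparagine, and it had 37.9, 51.9 and 31.6 CPM in Eff+ libraries, against 6.46, 13.0 and 15.2 CPM in Eff-. No value was shared between the ranges, with a rise of 3.5-fold (log2 1.81, SE 0.34, adjusted p = 0.021, edgeR). Phgdh catalyses the first step of serine synthesis and had 2.53, 2.40 and 2.50 CPM in Eff+ libraries, against 0.675, 0.533 and 0.826 CPM in Eff-. It rose 3.65-fold from a low level (log2 1.87, SE 0.47, adjusted p = 0.042, edgeR), but was called in 0 of the 6 fits that left out a library. Psat1, the next enzyme of the same serine route, had 7.60, 8.31 and 10.4 CPM in Eff+ and 15.3, 16.9 and 9.32 CPM in Eff-. Its value was low in all 3 Eff+ libraries and in the Eff- library numbered 3, and at -0.66 (SE 0.28, adjusted p = 0.16, edgeR) it did not pass. The mitochondrial enzymes Shmt2, Mthfd2 and Pck2 were at -0.53, -0.27 and -0.49 and were not called. The 6 enzymes had a median log2 fold change of -0.38, beside 1.6 for the 4 stress and feedback genes and 0.18 for the 6 factors and regulators.

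The ER stress sensors were not called in wounds. Eif2ak3, which encodes PERK, had 9.36, 7.67 and 6.14 CPM in Eff+ libraries, against 4.25, 3.44 and 3.83 CPM in Eff-. All Eff+ values were the higher ones, and the log2 fold change of 1.01 had an adjusted p of 0.058 (SE 0.28, edgeR), although DESeq2 and edgeR with at least 10 counts in every library called it. 8.05% of its exon bases lie opposite the antisense gene Gm43292. The wound counts were made without a strand setting, so reads in that stretch were not counted for either gene. Xbp1, the factor that IRE1 splices, had 443, 319 and 327 CPM in Eff+ libraries and 292, 245 and 267 CPM in Eff-. All 3 Eff+ values were above all 3 Eff- values, with a log2 fold change of 0.44 (SE 0.19, adjusted p = 0.16, edgeR), and these counts do not separate spliced from unspliced mRNA. Ern1 and Atf6 were at -0.31 and -0.09.

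Among the 10 ER chaperones and folding factors, 1 rose, 1 fell and 7 had a negative log2 fold change in wounds. Dnajb9 (ERdj4), a co-chaperone of BiP that also restrains IRE1, had 312, 394 and 341 CPM in Eff+ libraries, against 137, 148 and 201 CPM in Eff-. The groups were apart and it rose 2.15-fold (log2 1.11, SE 0.20, adjusted p = 0.018, edgeR). Sdf2l1, a partner of BiP in an ER chaperone complex, had 44.5, 34.5 and 43.5 CPM in Eff+ libraries, against 87.9, 85.2 and 73.5 CPM in Eff-. Each Eff+ value was under each Eff- value, and Sdf2l1 was 2.01-fold lower (log2 -1.01, SE 0.17, adjusted p = 0.014, edgeR). Hspa5 encodes BiP, the main chaperone of the ER, and had 2288, 2615 and 2725 CPM in Eff+ and 1503, 1857 and 2347 CPM in Eff-. The Eff- library numbered 3 reached into the Eff+ range, and at 0.42 (SE 0.22, adjusted p = 0.24, edgeR) the gene did not pass. Pdia4, a disulphide isomerase, had 47.9, 40.0 and 69.0 CPM in Eff+ libraries, against 81.2, 88.5 and 108 CPM in Eff-. All Eff+ values were the lower ones, with a log2 fold change of -0.82 and an adjusted p of 0.058 (SE 0.23, edgeR). Pdia4 was called lower in 6 of 14 alternative settings, among them edgeR with no filter or with at least 10 counts in every library, and DESeq2. Dnajc3, an inhibitor of eIF2 kinases and BiP co-chaperone, was also lower without overlap (-0.37, adjusted p = 0.15, edgeR). Hsp90b1, Calr, Creld2 and Manf were between -0.46 and -0.21, and Hyou1, at 1.67 to 6.04 CPM in Eff+ libraries and 2.06 to 2.75 CPM in Eff-, was at 0.48 with its highest value in the Eff+ library numbered 2.

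Of the degradation genes, Herpud1 was called in wounds and Edem1 was not. Herpud1, which helps assemble the ubiquitin ligase that clears misfolded ER proteins, had 263, 296 and 232 CPM in Eff+ libraries, against 142, 157 and 157 CPM in Eff-. The groups were apart, and it rose 1.73-fold (log2 0.79, SE 0.16, adjusted p = 0.024, edgeR). It is the member whose promoter window holds both the composite core and the related ER element. Edem1, which hands misfolded glycoproteins to degradation, was at 0.28 (adjusted p = 0.30, edgeR).

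**Figure D2:**
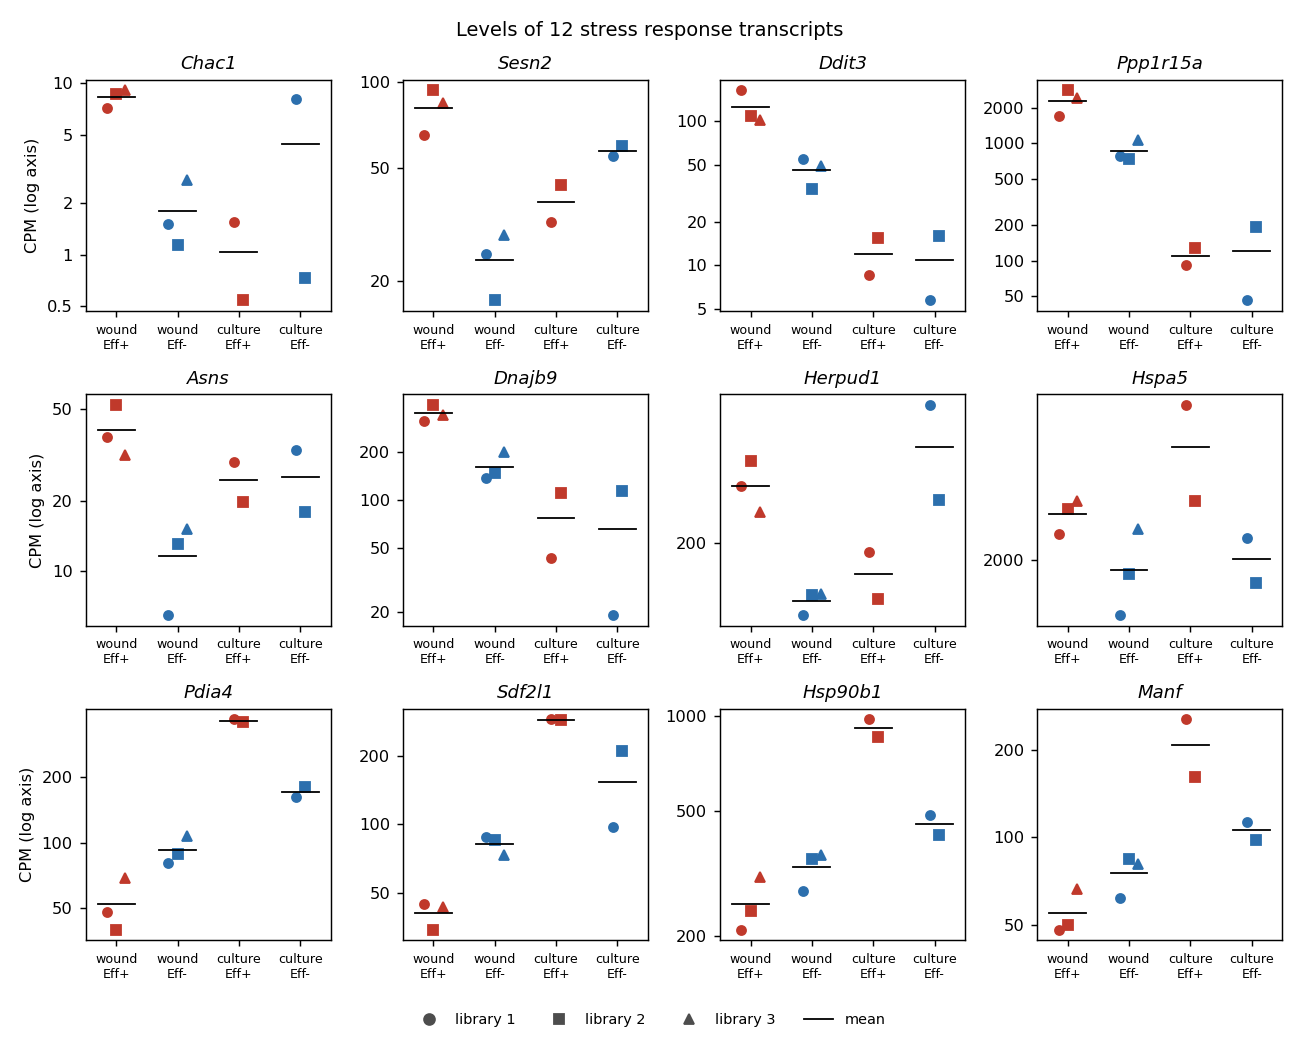
Levels of 12 members in CPM on a log axis, with 1 point per library, Eff+ in red left of Eff- in blue, marker shape by library number and a line at the group mean. Wound and culture tables were normalised separately. In wounds Sesn2 had 65.2 to 93.3 CPM in Eff+ and 17.1 to 29.0 CPM in Eff-, while in culture it had 32.2 and 43.6 CPM in Eff+ and 55.0 and 59.7 CPM in Eff-.

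Counted by overlap alone, 6 ATF4-CHOP members were above and 1 was below all Eff- libraries in wounds, and in the ER arm 4 were above and 3 below. Over all genes tested 18.7% were higher and 18.1% lower without overlap. The 3 ER members that were lower without overlap were the folding factors Pdia4, Sdf2l1 and Dnajc3, and the 4 that were higher were Eif2ak3, Xbp1, Dnajb9 and Herpud1. Within each library, the median of the ATF4-CHOP members minus that of the ER members, each centred on its mean, was 0.21, 0.47 and 0.45 in Eff+ and -0.34, -0.38 and -0.29 in Eff-. The spread of this difference within groups was 0.11 (pooled SD), and between the fitted medians of the arms the difference was 0.72. These are descriptions, since the members were chosen with results known.

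Per kilobase of exon, which allows levels to be compared between genes, Ppp1r15a and Hspa5 were the most abundant members in both wound groups. Ppp1r15a was at 576 to 961 CPM per kilobase in Eff+ and 248 to 364 in Eff-, and Hspa5 at 541 to 644 in Eff+ and 355 to 555 in Eff-. Their ranges overlapped within Eff+, as they did within Eff-. Compared within the same library, Ppp1r15a was above Hspa5 in every Eff+ library and below it in every Eff- library. In culture, where values were scaled apart from the wound values, Ppp1r15a was at 31.3 and 43.6 CPM per kilobase in Eff+ and 15.6 and 65.9 in Eff-. Hspa5 had the highest mean there, with 1060 and 642 in Eff+ and 530 and 419 in Eff-.

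The number of wound calls depended on single libraries. Without the Eff- library numbered 2, 189 genes were called and Sesn2 was the single member among them. Without the Eff- library numbered 1, 451 genes were called, with Ddit3, Sesn2 and Asns among the members. The other omissions gave 820 to 1347 genes and 8 or 9 members, except the Eff+ library numbered 2, whose omission ended every call (edgeR in each case). The 9 members called in the full fit kept their sign over the 6 omissions, while Atf5, Cebpg, Atf6 and Hyou1, none of them called, changed theirs. Sesn2 lay between 1.56 and 1.92, Chac1 between 1.95 and 2.63, and Ddit3 between 1.19 and 1.57. Scaled by library totals alone, the median over all genes was -0.42, 714 genes were higher and 2654 lower, and the members called were 5 higher and 2 lower in the ATF4-CHOP arm and 1 higher and 5 lower in the ER arm. Relative to that shift the order of the arms was the same, with medians of 0.19 (ATF4-CHOP) and -0.54 (ER).

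Neighbouring genes of the pathways were taken from wider lists, whose counts in wounds are to be read beside the 11.2% called over all genes and show nothing particular to these lists. Of 31 further ATF4 or CHOP target genes tested, 2 rose and 0 fell. Slc7a11, the cystine importer that feeds glutathione synthesis, had 1526, 2268 and 1849 CPM in Eff+ libraries, against 353, 426 and 861 CPM in Eff-. The groups were apart, and it rose by 1.78 on the log2 scale (SE 0.36, adjusted p = 0.023, edgeR). Jdp2, a bZIP repressor, rose by 1.03 (SE 0.25, adjusted p = 0.038, edgeR). The median of the list was 0.02, beside -0.03 over all genes. Of 13 genes of eIF2, its kinases, phosphatases and exchange factor, 0 rose and 2 fell: Eif2b3, an exchange factor subunit, by 1.25, and Eif2s1, the phosphorylated subunit, by 0.66. Of 35 other ER folding, translocation and degradation genes, Hspa13 rose (1.01) and 4 fell, the UFM1 modifier Ufm1, its ligase adaptor Ddrgk1, the extraction ATPase Vcp and the BiP exchange factor Sil1, by 0.63 to 0.83. In that list 25 of 35 were negative, with a median of -0.20. Of 12 cytosolic and mitochondrial heat shock genes, Dnajb1 rose by 0.56 (adjusted p = 0.049, edgeR), and the median was -0.57.

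Immediate early genes, which cell dissociation as well as signalling can raise, moved with the ATF4-CHOP genes in wounds. They summed to 2.25 to 2.49% of the Eff+ counts and 1.39 to 1.82% of the Eff- counts. Of these 12 genes, 4 rose (Btg2 by 1.65, Dusp1 by 1.22, Egr1 by 1.13 and Ier2 by 1.01), where 7.39% of all genes tested rose. The median of the list was 0.75, and its part in the wound result was not tested.

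**Figure D3:**
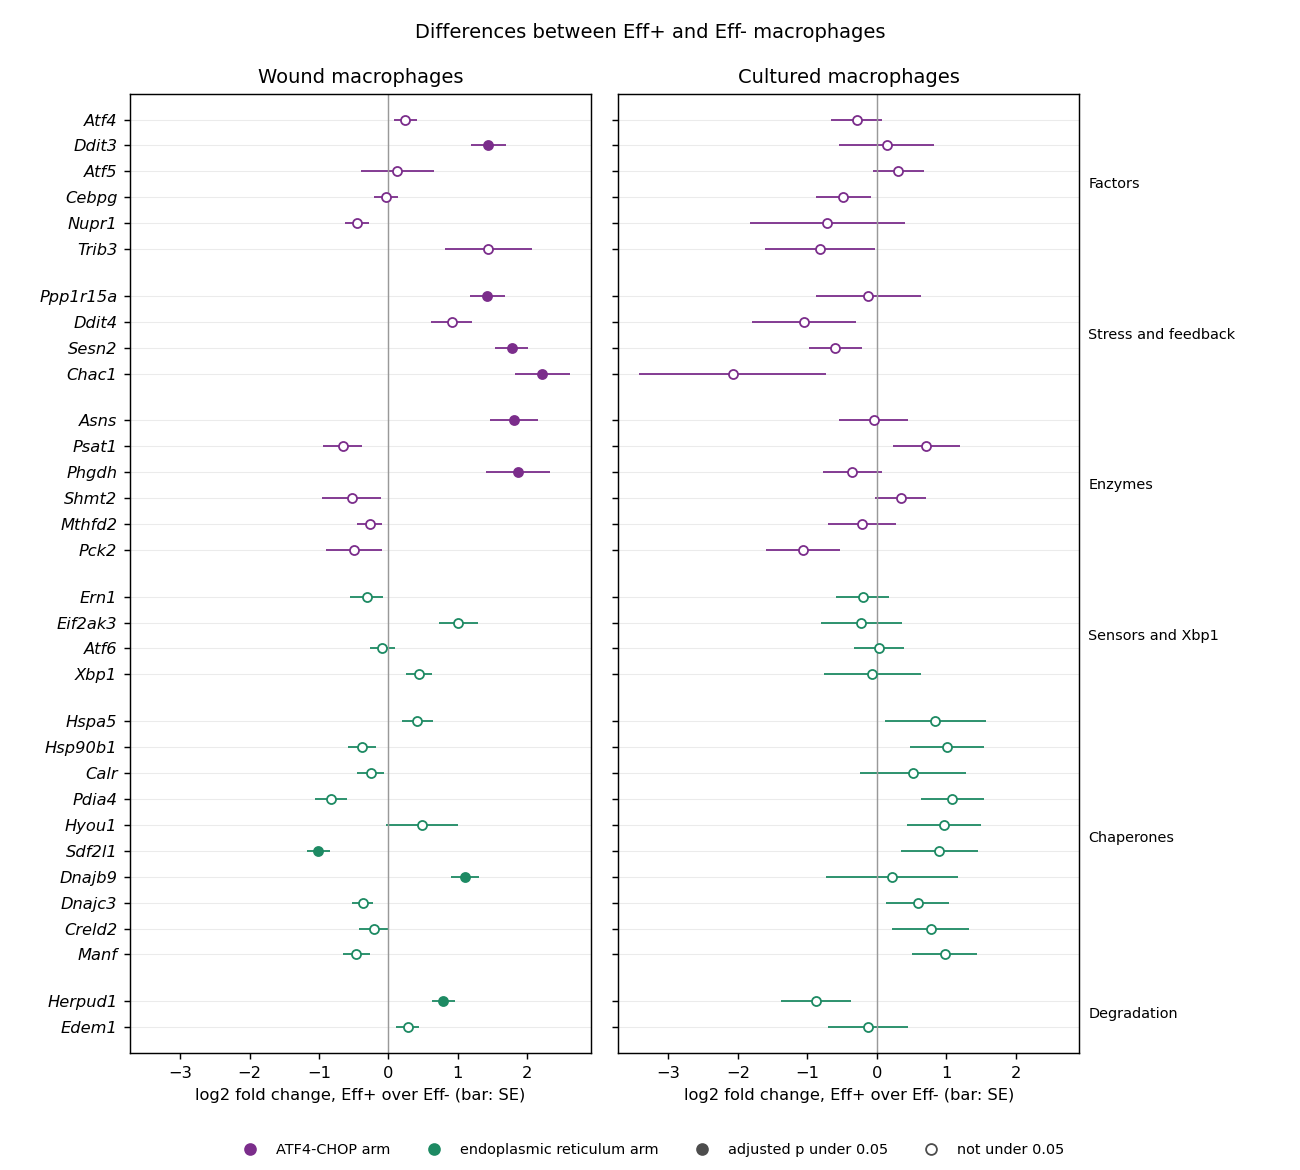
Log2 fold change of Eff+ over Eff- for each member with its standard error, wounds on the left and culture on the right on a shared axis, filled where the adjusted p was under 0.05. In wounds the filled points were Ddit3, Ppp1r15a, Sesn2, Chac1, Asns, Phgdh, Dnajb9 and Herpud1 above 0 and Sdf2l1 below it, and in culture there were none.

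In culture no member passed the test. With 2 libraries a group, edgeR called 0 of 14867 genes (0%), 115 genes had an unadjusted p under 0.05 and none of these was a member, and DESeq2 called 2 genes, none a member. All 10 chaperones had a positive log2 fold change, from 0.21 to 1.09 with a median of 0.87, beside -0.05 over all genes. The ER arm as a whole had a median of 0.56, and the ATF4-CHOP arm -0.32 with 12 of 16 members negative. Adjusted p-values were 1 for every member, so these are values, not calls. The 10 chaperones summed to 0.777 and 0.508% of counts in Eff+ libraries, against 0.465 and 0.313% in Eff- libraries.

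Pdia4 had the smallest unadjusted p of the members in culture. It had 368 and 359 CPM in Eff+ libraries, against 163 and 180 CPM in Eff-, with a log2 fold change of 1.09 (SE 0.45, unadjusted p = 0.061, edgeR). The groups were apart, as they were for Hsp90b1, the ER form of HSP90, with 973 and 854 CPM in Eff+ and 486 and 419 CPM in Eff-. Hspa5 had 4483 and 2715 CPM in Eff+ libraries, against 2240 and 1774 CPM in Eff-. Manf, a secreted ER stress protein that binds BiP, had 254 and 161 CPM in Eff+ and 113 and 98.1 CPM in Eff-. In each of these the lower Eff+ library was still above the higher Eff- library, as it was for Hyou1, Sdf2l1 and Dnajc3. That makes 7 ER members higher without overlap and 2 lower (Ern1 and Herpud1), where over all genes 11.3% were higher and 9.42% lower without overlap. Sdf2l1 was at 288 and 287 CPM in Eff+ and 97.4 and 211 CPM in Eff-, with the lowest value in the Eff- library numbered 1. Calr and Creld2 had overlapping groups.

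Of the 10 factors, regulators and stress and feedback genes, 8 had a negative log2 fold change in cultured Eff+ cells, as did the degradation gene Herpud1. Herpud1 had 192 and 154 CPM in Eff+ libraries, against 387 and 246 CPM in Eff-. Sesn2 had 32.2 and 43.6 CPM in Eff+, against 55.0 and 59.7 CPM in Eff-. Both were lower in Eff+ without overlap, with log2 fold changes of -0.88 and -0.60 (SE 0.50 and 0.38). Atf4 had 52.7 and 42.4 CPM in Eff+ and 55.1 and 61.2 CPM in Eff-, also without overlap, at -0.29. Ddit3 had 8.51 and 15.4 CPM in Eff+ libraries and 5.70 and 16 CPM in Eff-, and Ppp1r15a had 92 and 128 CPM in Eff+ and 45.8 and 194 CPM in Eff-. For both, the libraries numbered 1 and 2 differed more than the groups did. The same held for Xbp1, with 317 and 525 CPM in Eff+ and 237 and 645 CPM in Eff-, and for Dnajb9, with 43.5 and 110 CPM in Eff+ and 19.2 and 113 CPM in Eff-. Chac1 had 1.54 and 0.540 CPM in Eff+ and 8.08 and 0.727 CPM in Eff-, so that its log2 value of -2.08 (SE 1.34) rested on the Eff- library numbered 1. Asns had 29.6 and 19.8 CPM in Eff+ and 33.0 and 17.9 CPM in Eff-, and Phgdh had 21.6 and 20.6 CPM in Eff+ and 20.7 and 33.2 CPM in Eff-. The enzymes that rose in wounds thus overlapped between the groups in culture. Of the other members, Cebpg and Pck2 were lower and Atf5, Psat1 and Shmt2 higher without overlap, and Trib3, Nupr1, Ddit4, Mthfd2, Eif2ak3, Atf6 and Edem1 overlapped.

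The cell type markers were compared in culture as well. The summed neutrophil markers held 0.175 and 0.275% of counts in Eff+ and 0.154 and 0.307% in Eff-, and Ly6g had 4 and 0 counts in Eff+ and 6 and 2 in Eff-. Dendritic cell markers held 0.00427 and 0.0015% in Eff+ and 0.0611 and 0.0164% in Eff-, and macrophage markers held 1.83 and 5.37% in Eff+ and 0.618 and 6.57% in Eff-. The macrophage share was thus low in both libraries numbered 1. Fibroblast markers, of the cell type fed to the cultures, held 0.00141 and 0.0209% in Eff+ and 0.00315 and 0.00486% in Eff-, with overlap. Over the 11 tested, their median log2 fold change was 0.86, with 7 positive and 4 negative. The part of these cell types in the culture values was not tested. In the wider lists, 30 of 35 other ER genes were positive with a median of 0.33 (Sec24d and Wfs1, of smallest p, at 0.90 and 0.91). Eif2s2 and Eif2b3 were at 0.95 and 0.82, Bbc3 and Iars at -1.11 and 0.47, and Hspd1 and Hsph1 at 0.98 and 0.59. The immediate early genes had a median of -0.88, with Btg2 at -1.93 and Nr4a1 at -2.36. None was called.

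**Figure D4:**
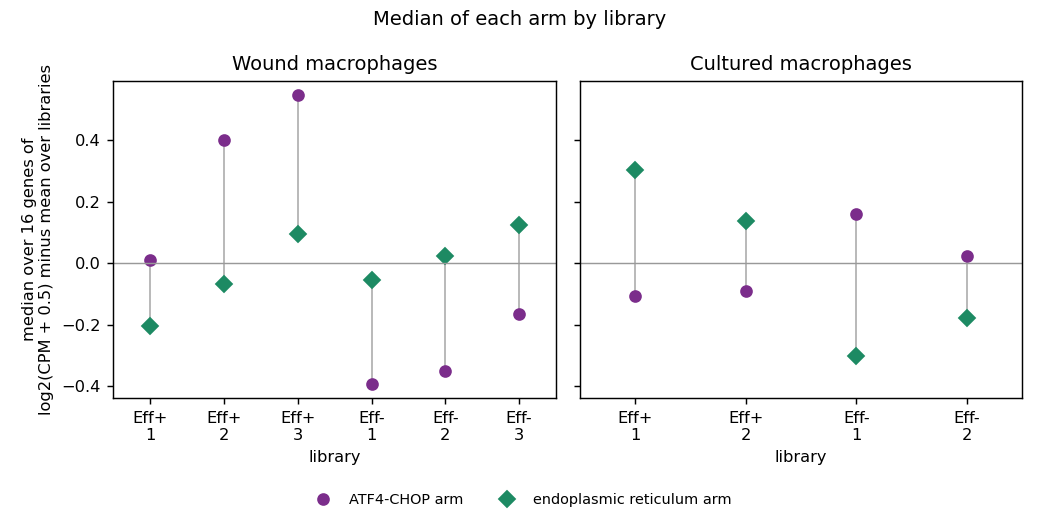
Median over the 16 members of the ATF4-CHOP arm and of the ER arm in each library, as log2(CPM + 0.5) minus the member's mean in that experiment, with Eff+ libraries left of Eff- libraries. In wounds the ATF4-CHOP median was 0.01, 0.40 and 0.54 in Eff+ and -0.39, -0.35 and -0.16 in Eff-, and in culture the ER median was 0.30 and 0.14 in Eff+ and -0.30 and -0.18 in Eff-.

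Wounds and culture were then set against each other in a single fit of all 10 libraries, in which a positive value means that the Eff+ over Eff- difference was larger in wounds. The difference between the experiments was called for 0 of 20270 genes (0%) by edgeR, with 2222 genes at an unadjusted p under 0.05, 6 of them in each arm. Sesn2 had the smallest adjusted p of the members, with a difference of 2.39 (SE 0.44, adjusted p = 0.12, edgeR). On the ER side Pdia4 was at -1.90 (adjusted p = 0.17, edgeR) and Sdf2l1 at -1.89. With no filter on low counts, edgeR called Sesn2 and Chac1 among 517 genes. DESeq2 called 797 genes and 7 members, with Sesn2, Chac1, Phgdh and Herpud1 higher and Hsp90b1, Pdia4 and Sdf2l1 lower. Omitting a culture library left 1 library in its group, so calls from those fits are not given. All 4 stress and feedback genes were positive in wounds and negative in culture. Over the omissions of 1 culture library, however, the culture value of Ppp1r15a ran from -0.78 to 1.56. Ddit4 ran from -1.37 to 0.11 and Chac1 from -2.98 to 0.55 there, while Sesn2 stayed between -0.72 and -0.24. In the ER arm, 7 of 10 chaperones (Hsp90b1, Calr, Pdia4, Sdf2l1, Dnajc3, Creld2 and Manf) were negative in wounds and positive in culture. The call of a difference between wound and culture cells thus depended on the tool and the filter, and the culture values depended on single libraries.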

How the data were processed

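The authors deposited unnormalised read counts for every gene. For the wound libraries they were made with featureCounts 1.6.0 at default settings on the Ensembl release 106 annotation, per the file headers, so reads of overlapping and antisense genes cannot be told apart. GRCm39 and Trimmomatic 0.39 are named in the submitters' processing notes. For the aligner and the counting command of the culture libraries the sources used here give nothing. Another 4 columns of the culture counts matched no sample and were not used. GENCODE vM21 named 52081 of 55414 identifiers, with 99.91% of counts.

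Each experiment was fitted alone in edgeR 4.0.16 (R 4.3.3) with TMM scaling, filterByExpr and the quasi-likelihood test, with Benjamini-Hochberg adjustment over all genes tested and calls under 0.05. Scripts were tested on simulated data. The difference between experiments was fitted over all 10 libraries. DESeq2 1.42.0, other scalings and filters, omitted libraries and a replicate block were alternatives. Members and lists were chosen with earlier results of these data known. All 32 members are named, with values per library for those called and for Atf4, Ddit3, Xbp1 and Hspa5, and further members were given values after these were seen. From every other list up to 4 called genes a direction are named, or the 2 of smallest p. The cell type lists in culture are given mainly as summed shares instead. The labels do not state whether replicates came from different mice or dishes, so p-values cover the spread among these libraries alone, which may be technical. Every pair of replicates differed by more than sampling noise.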

Additional observations from a re-analysis of the deposited data

Results flagged for a closer look

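For 5 members every Eff+ library lay on one side of the Eff- libraries in wounds and on the other side in culture. Over all genes tested, 18.7% were higher and 18.1% lower without overlap in wounds, and 11.3% and 9.42% in culture. The share of all genes on opposite sides was not counted, so these members are not shown to be unusual. The difference between experiments (wound minus culture, log2) was 2.39 for Sesn2 (adjusted p = 0.12) and 1.68 for Herpud1 (adjusted p = 0.215), both higher in wound Eff+ cells and lower in cultured Eff+ cells. It was -1.90 for Pdia4 (adjusted p = 0.17), -1.89 for Sdf2l1 (adjusted p = 0.215) and -0.95 for Dnajc3 (adjusted p = 0.40), all lower in wound Eff+ cells and higher in cultured ones. None passed in edgeR's test of the difference itself with filterByExpr and Benjamini-Hochberg adjustment. With no filter edgeR called Sesn2, and DESeq2 called Sesn2, Herpud1, Pdia4 and Sdf2l1. With the replicate block edgeR called the same 4.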

How the results depend on the processing

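In wounds, other settings moved the 1666 calls to 3368 (library totals only), 3150 (DESeq2) and 2985 (replicate block), and the 3 ER calls to 6 (library totals), 5 (at least 10 counts in every library) and 5 (DESeq2). Leaving out both libraries numbered 2 gave 0 genes, 0 ATF4-CHOP and 0 ER members. Leaving out 1 library gave 0 to 1347 genes, 0 to 6 ATF4-CHOP and 0 to 4 ER members, and an arm difference of 0.63 to 0.96. In culture, 2 genes were called with no filter, 2 by DESeq2 and 48 with the replicate block. Leaving out 1 library gave 0 to 27 genes and an arm difference of -1.02 to -0.59. The difference between experiments was called for 517 genes and 2 members with no filter, 797 and 7 by DESeq2, and 441 and 5 with the replicate block (Sesn2, Chac1, Herpud1, Pdia4 and Sdf2l1). Leaving out 1 library gave 0 to 2009 genes and 0 to 9 members, and Nupr1 lay between -2.15 and 1.16. Its -2.15, a reversed direction, came without the culture Eff- library numbered 2, which left 1 library in that group. The cause was not tested. Same-numbered wound deviations correlated at 0.41, 0.017 and 0.23, and culture ones at 0.74, a single figure since there were 2 numbers. By themselves these correlations do not settle whether same-numbered libraries were pairs. Both wound libraries numbered 2 shared high Lyz2 counts, and both culture libraries numbered 1 shared counts on more genes. With the replicate block, 11 members were called in wounds and 0 in culture. The labels do not say what a number marks, so the main fits took no pairs and the replicate block was an alternative. Of single-member values, 13 of 448 changed sign in wounds, 38 of 352 in culture and 25 of 512 between experiments.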
